A study of Mus musculus with 14 samples.

Results

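Inflammasome and interleukin-1 genes are described here as 8 named genes: the sensor Nlrp3, the adaptor Pycard (ASC), the protease Casp1, the pore-forming Gsdmd, the cytokines Il1b, Il1a and Il18, and the antagonist Il1rn. All 8 were found by name among the 24732 features of both count tables. The set was chosen by gene name with measured values of these same libraries already known. Which values weighed in that choice is not recorded, so the members' values below are descriptions. RNA was taken from aorta and liver of mice at 52 weeks on a normal laboratory diet. Aortas numbered 3 for HuBL and 3 for BT3xHuBL, and livers 4 for each. The labels give the strain names without alleles, sex or numbers of animals. From earlier publications on these strains, HuBL mice lack the low-density lipoprotein receptor and carry human apolipoprotein B, and BT lines add a transgenic T cell receptor against that protein, so all groups would share that background and HuBL is the control for the receptor. The labels do not state that each library is a different animal. A p-value here reflects how much these libraries vary, and part of that may be technical.

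The inflammasome is a protein platform of myeloid cells that turns a danger signal into active cytokine. Nlrp3 senses the signal, Pycard links it to the protease, and Casp1 then cuts the precursors of interleukin-1β and interleukin-18 and opens Gsdmd, which forms pores in the plasma membrane. Interleukin-1α is active without that cut, and Il1rn encodes a secreted protein that occupies the interleukin-1 receptor without signalling. In atherosclerosis these genes are studied in plaque macrophages, and in the liver mostly in Kupffer cells. RNA levels say nothing of cleavage or secretion.

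The 250 bases before the transcription start are given for 4 of the genes: Pycard, Casp1 and Il1a, which had the lowest BT3xHuBL to HuBL ratios in the liver, and Il1b, the cytokine the platform is best known for. Sequences are from RefSeq (GRCm38.p6), which had an entry for 7 of the 8 genes. Each is written 5′ to 3′ on the gene's strand, and capitals mark matches on either strand to the core promoter element TATAAA, to TGANTCA (AP-1), TTGCNNAA (C/EBP), GAGGAA (the core bound by PU.1, a factor of myeloid cells) or the NF-kB consensus.
Pycard, chr7:127993868-127994117, minus strand: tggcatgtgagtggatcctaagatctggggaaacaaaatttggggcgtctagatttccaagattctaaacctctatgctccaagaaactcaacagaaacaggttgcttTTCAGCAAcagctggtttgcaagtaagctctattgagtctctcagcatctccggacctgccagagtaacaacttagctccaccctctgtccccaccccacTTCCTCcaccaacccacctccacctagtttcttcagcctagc
Casp1, chr9:5298267-5298516, plus strand: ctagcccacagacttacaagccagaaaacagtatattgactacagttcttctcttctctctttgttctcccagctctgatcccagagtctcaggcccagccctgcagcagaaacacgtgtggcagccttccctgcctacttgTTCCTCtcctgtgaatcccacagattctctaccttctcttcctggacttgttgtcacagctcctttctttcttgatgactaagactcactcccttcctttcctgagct
Il1a, chr2:129309973-129310222, minus strand: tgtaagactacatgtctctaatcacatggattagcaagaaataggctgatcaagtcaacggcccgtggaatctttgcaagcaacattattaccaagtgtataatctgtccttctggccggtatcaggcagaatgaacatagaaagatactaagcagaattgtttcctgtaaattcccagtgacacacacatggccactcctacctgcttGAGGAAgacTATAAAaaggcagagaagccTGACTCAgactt
Il1b, chr2:129371140-129371389, minus strand: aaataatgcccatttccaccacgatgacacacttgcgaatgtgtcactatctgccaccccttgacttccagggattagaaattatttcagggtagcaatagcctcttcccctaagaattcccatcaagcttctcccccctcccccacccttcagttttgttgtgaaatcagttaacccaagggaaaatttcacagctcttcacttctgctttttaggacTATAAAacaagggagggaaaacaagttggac
Il1a and Il1b each held TATAAA, starting at −32 and −31, while no match was found in the windows of Pycard and Casp1. The PU.1 core was found in Pycard at −42, in Casp1 at −108 and in Il1a at −41. Il1a also held an AP-1 match at −12 and Pycard a C/EBP match at −142. Of all 32851 promoter windows of this length, 12.4% held TATAAA, 6.75% AP-1, 9.56% C/EBP, 23.3% the PU.1 core and 7.25% the NF-kB consensus. A match describes letters and not a bound site.

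Depth was 41933263 to 65539765 counts in the aortas and 13228123 to 17992459 in the livers. Levels are given as CPM, counts normalized for depth after scaling all 14 libraries together, and a 3′-end kit was used, so a count stands for a transcript with no correction for length. Hepatocyte markers (4 genes) summed to 129100 to 170000 CPM in the livers and 11.7 to 42.6 in the aortas, and smooth muscle markers (4 genes) to 8306 to 11360 CPM in the aortas and 12.3 to 44.0 in the livers, as their labels say. The receptor segment Vb14 had 32, 38 and 2 counts in BT3xHuBL aortas 1 to 3 and 0 to 10 in the HuBL aortas, and Trav14-1 had 4, 52 and 0 counts against 0 in each HuBL aorta. BT3xHuBL aorta 3 therefore had receptor counts in the range of the HuBL aortas. In BT3xHuBL livers 1 to 4 Vb14 had 2, 3, 0 and 1 counts and Trav14-1 had 1, 1, 0 and 2, and both had 0 in each HuBL liver. BT3xHuBL liver 3 thus had 0 counts of both, as the HuBL livers did. For each segment alone a count of 0 allows up to 3, as many as the other livers had. The segments were not weighed together, and whether the label of this liver holds was not tested. The labels do not name the transgene's segments, and for each of the 8 genes the genotype values without BT3xHuBL aorta 3 or without BT3xHuBL liver 3 are given.

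**Figure D1:**
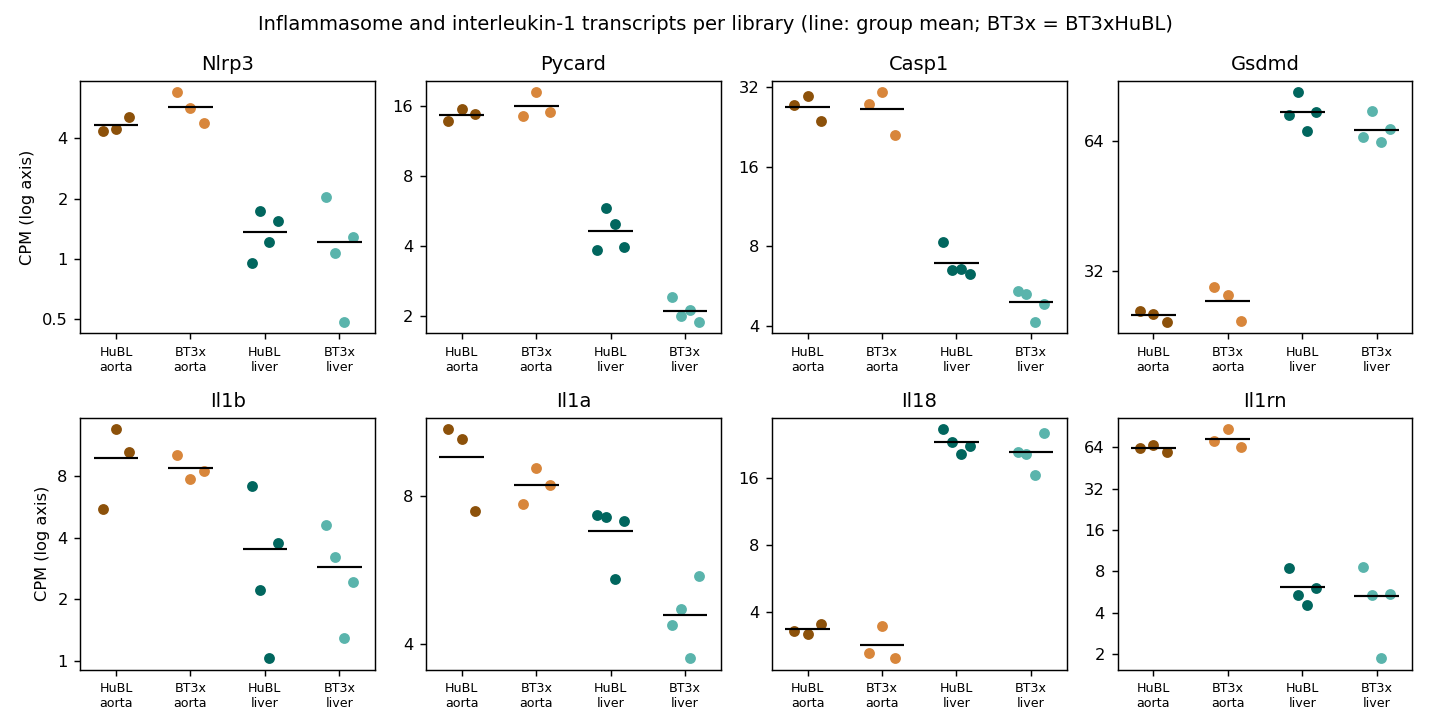
CPM of each gene in each library (log axis), with 3 aortas or 4 livers per group; points are libraries and lines are group means. Il18 and Gsdmd were higher in all livers than in any aorta. Il1rn, Pycard, Casp1, Nlrp3 and, by a small margin, Il1a were higher in all aortas than in any liver. Pycard and Casp1 were lower in all 4 BT3xHuBL livers than in any HuBL liver.

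Nlrp3, the sensor, had the lowest mean CPM of the 8 in the liver. Its CPM was 4.36, 4.46 and 5.13 in HuBL aortas, 6.77, 5.68 and 4.74 in BT3xHuBL aortas, 0.958, 1.74, 1.22 and 1.56 in HuBL livers, and 2.03, 1.07, 0.487 and 1.28 in BT3xHuBL livers. Every aorta exceeded every liver, and the genotypes overlapped in both tissues. In edgeR's quasi-likelihood fit, with Benjamini-Hochberg adjustment over all features as in every adjusted p below, BT3xHuBL against HuBL gave a log2 fold change of 0.29 (SE 0.17, n = 3 and 3, adjusted p = 1) in the aorta and −0.15 (SE 0.40, n = 4 and 4, adjusted p = 0.908) in the liver. The aorta value was 0.41 without BT3xHuBL aorta 3 and 0.16 without BT3xHuBL aorta 1. The liver values rest on 6 to 27 counts per library, and without BT3xHuBL liver 3 the log2 fold change was 0.11. Nlrp3 lies on chromosome 11, plus strand, from 59541568 to 59566956 (GRCm38, GENCODE M21, as for all positions of genes below).

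Pycard, the adaptor that joins sensor and protease, showed the largest genotype difference of the 8 in the liver. HuBL livers gave 3.83, 5.81, 4.96 and 3.96 CPM (48, 60, 53 and 56 counts), and BT3xHuBL livers gave 2.41, 1.98, 2.11 and 1.89 CPM (32, 24, 26 and 25 counts). All 4 BT3xHuBL livers were below all 4 HuBL livers, with means of 2.10 ± 0.23 and 4.64 ± 0.93 CPM (SD, n = 4 each). Its log2 fold change was −1.13 (SE 0.22), or a ratio of 0.456, with adjusted p = 0.165 in edgeR's quasi-likelihood fit, rank 20 of 12453 features by p. It did not pass the threshold of 0.05, but did in DESeq2 (adjusted p = 0.00478) and in the edgeR fit of all 14 libraries (adjusted p = 0.0326). With each liver left out in turn the log2 fold change stayed between −1.22 and −1.01.

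The aorta did not show that difference. Pycard was at 13.7, 15.5 and 14.7 CPM in HuBL aortas and 14.4, 18.2 and 15.1 CPM in BT3xHuBL aortas, so the genotypes overlapped. The log2 fold change there was 0.11 (SE 0.11, adjusted p = 1), 0.15 without BT3xHuBL aorta 3 and 0.002 without BT3xHuBL aorta 2. The difference between the genotype effects, aorta minus liver, was 1.25 on the log2 scale (SE 0.23), rank 2 of 14912 features by p, and its adjusted p was 0.217 with edgeR and 0.00117 with DESeq2. It was 1.29 without BT3xHuBL aorta 3 and 1.26 without BT3xHuBL liver 3. Pycard spans chromosome 7 from 127989708 to 127993867 on the minus strand and overlaps Gm45205 on the other strand, and no source used here says whether the counting used strand. Of 34 protein-coding neighbours within 500 kb, a window chosen after Pycard's values were seen, 30 were tested in the liver. Of these 14 were below 0, and the median log2 fold change was 0.03. None had all BT3xHuBL livers below all HuBL livers and 1 had all above, as 433 and 376 of all 12453 features did. In edgeR's fit 2 neighbours had an unadjusted p under 0.05, against 11.1% of all features. Their log2 fold changes ran from −0.84 for Trim72 to 0.89 for Prss8 over the neighbours tested. A cause at the locus was not tested.

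Casp1, the protease that cuts the cytokine precursors, was the other member whose genotypes did not overlap in the liver. Its CPM was 8.30, 6.48, 6.55 and 6.29 in HuBL livers and 5.42, 5.29, 4.14 and 4.83 in BT3xHuBL livers. BT3xHuBL against HuBL gave −0.49 on the log2 scale (SE 0.17, adjusted p = 0.352), and −0.39 without HuBL liver 1, the highest library. In the aorta the level was several times higher and the genotypes overlapped, at 27.4, 29.7 and 23.8 CPM in HuBL against 27.7, 30.6 and 21.1 CPM in BT3xHuBL. The log2 fold change there was −0.04 (SE 0.14, adjusted p = 1), or 0.10 without BT3xHuBL aorta 3, the lowest library, and 0.04 without HuBL aorta 2. Casp1 lies on chromosome 9, plus strand, from 5298517 to 5307265.

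Gsdmd, the pore protein at the end of the pathway, ran against Nlrp3, Pycard and Casp1 in tissue. It was higher in the livers, at 73.4, 82.7, 67.3 and 74.6 CPM in HuBL against 65.1, 74.9, 63.4 and 68.0 CPM in BT3xHuBL, than in the aortas, at 25.9, 25.5 and 24.4 CPM in HuBL against 29.4, 28.1 and 24.5 CPM in BT3xHuBL. Its spread was the smallest of the 8 in HuBL aortas, with a coefficient of variation of 2.93%. Genotypes overlapped in both tissues, with log2 fold changes of 0.10 (SE 0.09, adjusted p = 1) in the aorta and −0.13 (SE 0.09, adjusted p = 0.574) in the liver. The aorta value was 0.18 without BT3xHuBL aorta 3 and 0.05 without BT3xHuBL aorta 1. Gsdmd lies on chromosome 15, plus strand, from 75862327 to 75867408.

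Il1b, the best known secreted product of the pathway, had the largest spread of the 8 in HuBL mice, with coefficients of variation of 40.9% in the aorta and 74.6% in the liver. HuBL livers gave 7.10, 2.23, 1.03 and 3.75 CPM and BT3xHuBL livers 4.59, 3.22, 1.30 and 2.41 CPM. The highest and the lowest liver were both HuBL. HuBL aortas gave 5.54, 13.5 and 10.4 CPM and BT3xHuBL aortas 10.2, 7.70 and 8.46 CPM. The BT3xHuBL aortas lay inside the HuBL range. The log2 fold change was −0.17 (SE 0.31, adjusted p = 1) in the aorta and −0.30 (SE 0.54, adjusted p = 0.866) in the liver. Leaving out HuBL aorta 2 turned the first to 0.13, and leaving out HuBL liver 1 turned the second to 0.28. Without BT3xHuBL aorta 3 the aorta value was −0.15, and with each aorta left out it reached −0.46 (without HuBL aorta 1). Il1b lies on chromosome 2, minus strand, from 129364570 to 129371139, and overlaps Il1bos on the other strand, which had at most 0.0928 CPM in the group means.

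Il1a, an alarmin that needs no Casp1 cut, was lower in value in BT3xHuBL livers, at 4.37, 4.71, 3.74 and 5.51 CPM against 7.34, 7.26, 5.43 and 7.14 CPM in HuBL. A single pair overlapped: BT3xHuBL liver 4 stood just above HuBL liver 3. As a log2 fold change this was −0.57 (SE 0.18, adjusted p = 0.325). Aortas were at 10.97, 10.5 and 7.48 CPM in HuBL against 7.70, 9.16 and 8.42 CPM in BT3xHuBL, with overlap and a log2 fold change of −0.21 (SE 0.16, adjusted p = 1). The aorta value was −0.20 without BT3xHuBL aorta 3, and it ran from −0.36 without HuBL aorta 3 to −0.10 without HuBL aorta 1. Il1a lies on chromosome 2, minus strand, from 129299610 to 129309972, next to Il1b, with Gm14023 on the other strand.

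Il18, the other cytokine that Casp1 matures, was mainly a liver transcript. Livers gave 26.5, 23.2, 20.6 and 22.2 CPM in HuBL against 20.9, 20.5, 16.6 and 25.3 CPM in BT3xHuBL, and the 3 HuBL aortas 3.32, 3.21 and 3.54 CPM, as against 2.64, 3.48 and 2.49 CPM with BT3xHuBL. Genotypes overlapped in both tissues. The log2 fold change was −0.24 (SE 0.20, adjusted p = 1) in the aorta, or −0.14 without BT3xHuBL aorta 3 and −0.40 without BT3xHuBL aorta 2, and −0.15 (SE 0.13, adjusted p = 0.685) in the liver. Il18 spans chromosome 9 from 50554827 to 50581840 on the plus strand and overlaps Bco2 and Tex12 on the other strand. Bco2, an enzyme of carotenoid breakdown, was itself at 55.2 and 48.7 CPM in HuBL and BT3xHuBL livers and at 0.674 and 1.06 CPM in the aortas, and reads of the overlapping genes cannot be told apart from those of Il18 if strand was not used.

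Il1rn, which encodes the receptor antagonist, had the largest tissue difference of the 8 and the highest mean CPM of them in the aorta. Aortas gave 63.7, 67.0 and 59.0 CPM in HuBL against 70.9, 86.9 and 64.2 CPM in BT3xHuBL. Livers gave 8.54, 5.42, 4.58 and 6.08 CPM in HuBL against 8.58, 5.37, 1.87 and 5.51 CPM in BT3xHuBL. Genotypes overlapped in both tissues, although the 2 highest aortas were BT3xHuBL. The log2 fold change was 0.22 (SE 0.11, adjusted p = 1) in the aorta, or 0.31 without BT3xHuBL aorta 3 and 0.09 without BT3xHuBL aorta 2, and −0.20 (SE 0.38, adjusted p = 0.869) in the liver, or 0.08 without BT3xHuBL liver 3. Il1rn lies on chromosome 2, plus strand, from 24336853 to 24351494.

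**Figure D2:**
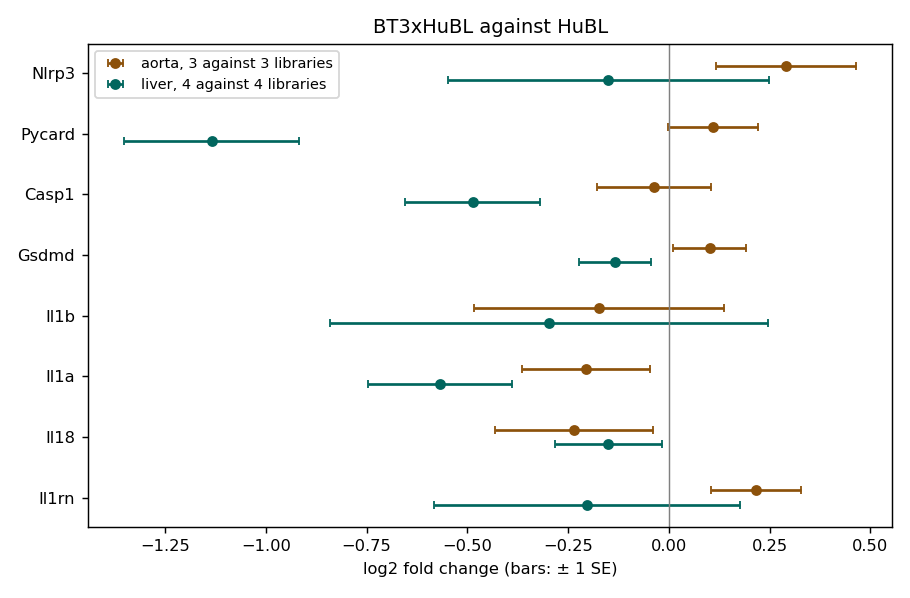
Log2 fold change of BT3xHuBL against HuBL for each gene in aorta (3 against 3 libraries) and liver (4 against 4); bars are ± 1 SE. The 4 genes above 0 and 4 below 0 in the aorta reach at most 0.29 in size, and all 8 liver values lie below 0, with Pycard lowest at −1.13.

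Across the 8 genes, 4 were above 0 and 4 below 0 in the aorta (median log2 fold change 0.03), and all 8 were below 0 in the liver (median −0.25). Over all features tested the medians were −0.004 in the aorta and 0.009 in the liver. None of the 8 passed the adjusted threshold in either tissue, where edgeR called 4 of 15400 features in the aorta (0.026%) and 0 of 12453 in the liver (0%; 1381 had an unadjusted p under 0.05, and DESeq2 called 127). At an unadjusted p under 0.05 stood 0 of 8 in the aorta, against 4.08% of all features, and 3 of 8 in the liver (Pycard, Il1a and Casp1), against 11.1%. BT3xHuBL libraries lay wholly below HuBL for 2 of 8 genes in the liver, against 3.48% of all features, and for 0 of 8 in the aorta, against 4.13%. For the interaction 0 of 8 passed, as did 0 of 14912 features (0%; 1217 or 8.16% had an unadjusted p under 0.05), and 2 of 8, Pycard and Casp1, had an unadjusted p under 0.05. Because the set was proposed with these data in view, nothing is read from these counts.

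**Figure D3:**
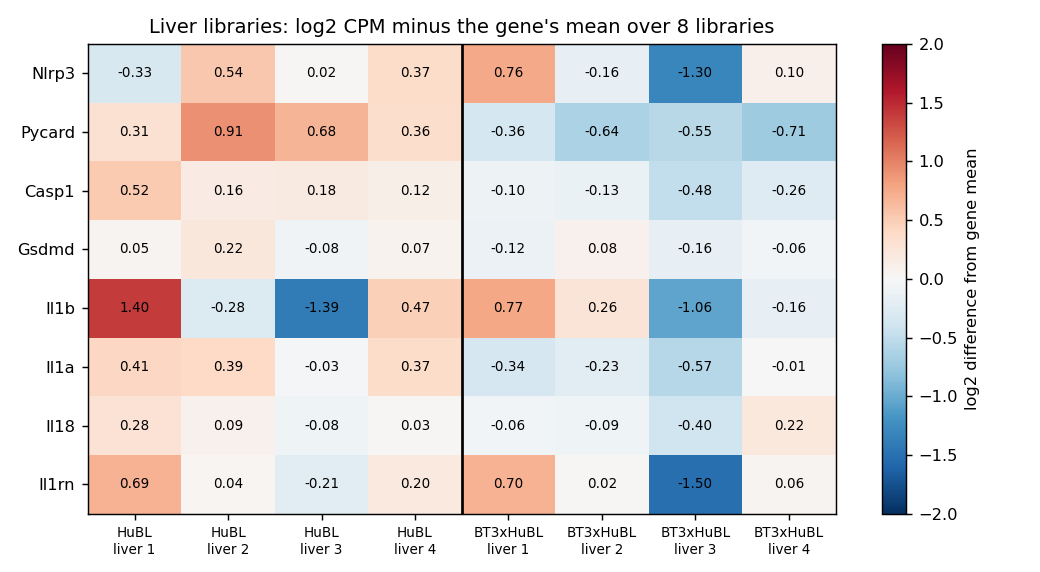
Log2 CPM of each gene in each of the 8 livers minus that gene's mean over them (color and printed value; HuBL left of the line, BT3xHuBL right). The Pycard and Casp1 rows are above 0 in all 4 HuBL and below 0 in all 4 BT3xHuBL livers. The Nlrp3 and Il1rn rows are lowest in BT3xHuBL liver 3 (−1.30 and −1.502) and the Il1b row in HuBL liver 3 (−1.39).

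Liver libraries differed from each other across several genes at once, as the plot of the 8 livers shows. BT3xHuBL liver 3 was the lowest of the 8 livers for 6 of the 8 genes, all but Pycard and Il1b. The same library had the lowest summed level of 6 macrophage markers (173 CPM, others 206 to 300 CPM), of 5 Kupffer cell markers (265 CPM, others 410 to 705 CPM) and of 5 monocyte markers (18.9 CPM, others 25.9 to 45.2 CPM). It was also the BT3xHuBL liver with 0 counts of both receptor segments. Without it, Pycard remained at −1.13, Casp1 was at −0.41, Il1a at −0.48 and Gsdmd at −0.10, while Il1b was at −0.06 and Il18 at −0.05. In bulk tissue, fewer cells of a type and less RNA per cell cannot be told apart.

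Macrophage and Kupffer cell marker sums did not separate the genotypes in the liver. The macrophage sum ranged from 206 to 300 CPM in HuBL and from 173 to 291 CPM in BT3xHuBL, and the Kupffer sum from 410 to 705 and from 265 to 595 CPM, with no marker of either list at 0. Of the 6 macrophage markers 3 were above 0 and 3 below 0 for BT3xHuBL against HuBL (median log2 fold change 0.04), and of the 5 Kupffer markers 2 and 3 (median −0.03). The T cell sum (Cd3e, Cd3d, Trac and Cd4) did separate them, at 7.21 to 11.3 CPM in HuBL against 1.89 to 5.28 CPM in BT3xHuBL livers. It was the only one of the listed cell types whose liver sum did so. All 4 T cell markers were below 0 (median −1.23), none at 0 and none past the adjusted threshold (smallest adjusted p = 0.281). Of them 2 were wholly lower in BT3xHuBL livers, against 3.48% of all features. All tested B cell, plasma cell and smooth muscle markers were also below 0 there, and all fibroblast markers above 0. Pycard and Casp1 separated the liver genotypes too, but within each genotype the livers were ordered differently for the T cell sum and for these genes. The highest T cell sum among BT3xHuBL livers was in liver 3, which had their lowest Casp1 (4.14 CPM). The part of T cells in the values of Pycard and Casp1 was not tested. In the aorta the macrophage sum overlapped (4508 to 5191 CPM in HuBL, 3944 to 5520 CPM in BT3xHuBL), and the sum of 3 plasma cell markers was 312 to 582 CPM in HuBL against 62.7 to 178 CPM in BT3xHuBL. The sum of 3 B cell markers was also lower, at 5.5 to 9.485 CPM in HuBL aortas against 1.63 to 3.62 CPM in BT3xHuBL. The sum of 4 hepatocyte markers was higher, at 11.7 to 21.1 CPM in HuBL aortas against 24.9 to 42.6 CPM in BT3xHuBL. The sum of 5 monocyte markers overlapped in the aorta (111 to 127 CPM in HuBL, 82.6 to 169 CPM in BT3xHuBL). Among them Ly6c2 was wholly lower and Chil3 wholly higher in BT3xHuBL, as 4.13% and 5.29% of all features were. The smallest adjusted p of these markers was 0.279. The part of these cell types in the aorta values was not tested.

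Tissue differences were larger than genotype differences for all of the genes but Il1a (log2 values of 0.50 between HuBL tissues and −0.57 between liver genotypes). In the fit of all 14 libraries, all 8 genes differed between HuBL aorta and HuBL liver, 6 higher and 2 lower in the aorta, where 83% of all 14912 features passed (44% higher, 39% lower). Il1rn was 10.2-fold higher in the aorta (log2 fold change 3.35, SE 0.29, adjusted p = 8.33e-08), followed by Casp1 at 3.90-fold, Nlrp3 at 3.40-fold, Pycard at 3.17-fold, Il1b at 2.73-fold (adjusted p = 0.0116) and Il1a at 1.42-fold (adjusted p = 0.0131). Il18 was lower in the aorta, with a log2 fold change of −2.78 (SE 0.16, adjusted p = 2.24e-10), and so was Gsdmd, at −1.56 (SE 0.09, adjusted p = 3.09e-10). Leaving out HuBL aorta 2 ended the calls of Il1a (adjusted p = 0.05) and Il1b (adjusted p = 0.0547), and leaving out HuBL aorta 1 that of Il1a (adjusted p = 0.0697).

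The BT3xHuBL libraries, which share none with the HuBL contrast beyond the common estimate of spread, gave the same 6 genes higher and 2 lower, where 83.1% of all features passed (43.3% higher, 39.8% lower). Il1rn was 13.8-fold and Casp1 5.38-fold higher in the aorta, and Il18 stood at −2.86 (SE 0.16) and Gsdmd at −1.31 (SE 0.09) on the log2 scale. Pycard was 7.57-fold higher in the aorta here and 3.17-fold in HuBL, which is its genotype by tissue difference in another form and no separate result. The median log2 tissue difference of all features was 0.10 in HuBL and 0.07 in BT3xHuBL. Scaling by library totals, an alternative added after the data were seen, raised these medians by 0.78 and 0.75, and Il18 and Gsdmd were then at −2.0 and −0.78 in HuBL and −2.10 and −0.56 in BT3xHuBL, still lower and past the threshold. Tissue, depth and the time or place of library making cannot be told apart here.

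**Figure D4:**
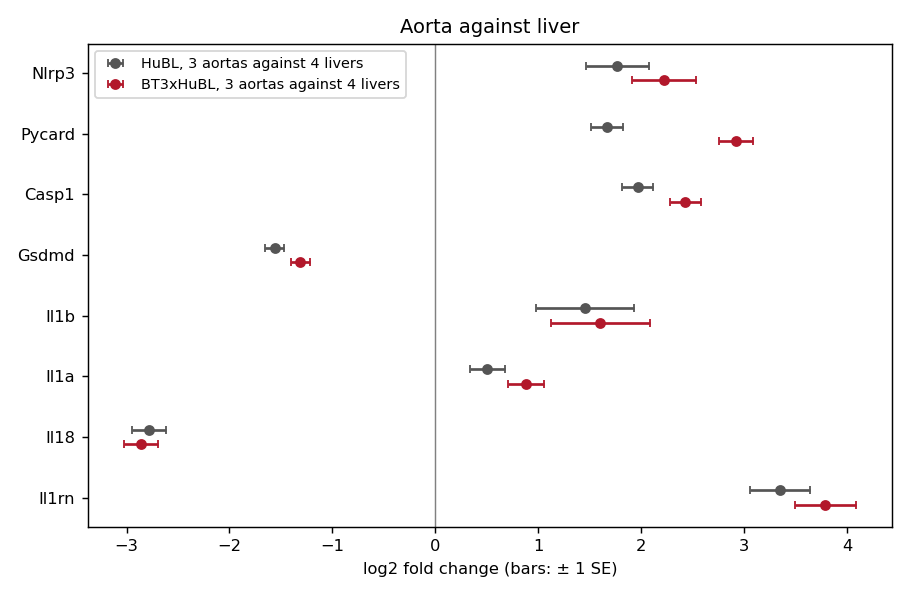
Log2 fold change of aorta against liver for each gene in HuBL (3 aortas against 4 livers) and BT3xHuBL (3 against 4); bars are ± 1 SE. In both genotypes Il1rn lies farthest right (3.35 and 3.79) and Il18 farthest left (−2.78 and −2.86), and Pycard has the widest gap between genotypes (1.67 and 2.92).

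Ordered by mean level, Nlrp3, Pycard and Il1rn ran from BT3xHuBL aorta through HuBL aorta and HuBL liver to BT3xHuBL liver, and Casp1, Il1b and Il1a had the 2 aorta groups exchanged. Gsdmd and Il18 ran from HuBL liver through BT3xHuBL liver to the aortas, with BT3xHuBL aorta above HuBL aorta for Gsdmd and below it for Il18. Within these orders the 2 aorta groups overlapped for all 8 genes. The 2 liver groups overlapped for all but Pycard and Casp1. Aorta and liver overlapped for Il1b, where HuBL liver 1 (7.10 CPM) exceeded HuBL aorta 1 (5.54 CPM), and came close for Il1a, where HuBL aorta 3 (7.48 CPM) stood just above HuBL liver 1 (7.34 CPM).

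Ratios of counts within a library do not depend on its scaling, and they describe the balance of ligand and antagonist. Il1rn to Il1b was 4.96 to 11.5 in HuBL aortas and 6.96 to 11.3 in BT3xHuBL aortas, and 1.202 to 4.46 in HuBL livers and 1.44 to 2.28 in BT3xHuBL livers. Every aorta thus had more antagonist transcript per Il1b transcript than any liver, and the genotypes overlapped. Il1rn to Il1a was 5.81 to 7.88 in HuBL aortas and 7.63 to 9.49 in BT3xHuBL aortas, and 0.747 to 1.16 and 0.500 to 1.97 in HuBL and BT3xHuBL livers. Gsdmd to Casp1 was 0.857 to 1.16 over the 6 aortas, 8.85 to 12.8 in HuBL livers and 12.0 to 15.3 in BT3xHuBL livers. Pycard to Casp1 was 0.462 to 0.896 in HuBL livers and 0.375 to 0.510 in BT3xHuBL livers, and these ranges overlapped.

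Beyond the 8 genes, 60 of 61 listed genes of the pathway were matched to a feature. In the aorta 56 were tested and none was called by edgeR (25 above 0, 31 below 0, median log2 fold change −0.01; 3 had an unadjusted p under 0.05, and the smallest adjusted p was 1). In the liver 48 were tested and none was called (20 above 0, 28 below 0, median −0.07; 7 had an unadjusted p under 0.05, and the smallest adjusted p was 0.307). The list counts stand beside 0.026% and 0% of all features called in these tissues. At an unadjusted p under 0.05 stood 4.08% of all features in the aorta and 11.1% in the liver.

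Among the other sensors and caspases, Casp4, which detects lipopolysaccharide in the cytosol and also cuts Gsdmd, had the lowest liver log2 fold change among the 13 of 15 genes of that role that were tested. Of these 13, 5 were above 0 and 8 below 0. Nlrp12 alone among them had no overlap of genotypes, and it was higher in BT3xHuBL livers. It was at 39.0 to 79.1 CPM there against 27.5 to 36.7 CPM in HuBL livers. Of all 12453 features, 376 were wholly higher in this way. Nlrp1a and Nod2 were too low in the liver to be tested. Casp4 was at 10.1, 6.29, 8.79 and 7.70 CPM in HuBL livers and 6.999, 4.30, 3.57 and 3.39 CPM in BT3xHuBL livers, with the genotypes overlapping (log2 fold change −0.85, SE 0.25, adjusted p = 0.307). Its aorta value was 0.06 (SE 0.14). The sensors Nlrc4, Naip2 and Aim2 were at 0.05, 0.01 and 0.14 in the liver and 0.04, −0.17 and −0.09 in the aorta, and Casp8 at 0.12 and 0.00. Of the genes that trigger or amplify Nlrp3, Nek7, its binding partner, was at 0.21 in the liver, P2rx7, the receptor for extracellular ATP, at −0.07, and Txnip, a thioredoxin-binding protein, at 0.39. In the aorta these were at 0.00, −0.03 and 0.17. Txnip was higher in all 3 BT3xHuBL than in all 3 HuBL aortas, as 5.29% of all features were, and its adjusted p was 1.

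Of the 9 receptors and decoys 7 passed between HuBL tissues, 5 higher and 2 lower in the aorta, and 6 passed in BT3xHuBL, where 83% and 83.1% of all features did. Il1rap, the shared accessory receptor, was at 297 and 260 CPM in HuBL and BT3xHuBL livers and 9.35 and 8.95 CPM in the aortas (log2 fold change of HuBL aorta against liver −4.99, SE 0.12, adjusted p = 2.13e-14). All 4 BT3xHuBL livers were below all 4 HuBL livers for Il1rap, 226 to 281 CPM against 286 to 310 CPM, as for 3.48% of all features. Its log2 fold change in the liver was −0.20 (SE 0.09, adjusted p = 0.451). Sigirr, an inhibitory receptor of the family, was also a liver transcript (20.6 and 22.3 CPM in the livers, 2.79 and 3.38 CPM in the aortas). Il1r1, the signalling receptor, was at 76.1 and 65.9 CPM in the aortas and 56.4 and 66.8 CPM in the livers. The decoy Il1r2 was at 1.68 and 1.26 CPM in the aortas and 0.0684 and 0.0771 CPM in the livers, where it was too low to be tested. Il18r1 was at 0.979 ± 0.378 CPM in HuBL against 1.90 ± 0.62 CPM in BT3xHuBL livers (log2 fold change 0.94, SE 0.36, adjusted p = 0.385), and Il18bp, the soluble inhibitor of interleukin-18, at 30.8 and 27.8 CPM. Il33, a sister cytokine stored in nuclei, was at 49.4 and 52.4 CPM in the aortas and 2.34 and 2.93 CPM in the livers.

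Signalling genes and targets of NF-kB showed no called genotype difference. In the liver 9 of the 11 tested NF-kB genes and targets were below 0 (median −0.35), and in the aorta 7 of 13 (median −0.01). Of all features, 5998 of 12453 were below 0 in the liver (median 0.009) and 7930 of 15400 in the aorta (median −0.004). Tnf, an inflammatory cytokine, was at 1.60, 1.74, 1.497 and 0.990 CPM in HuBL livers and 0.753, 0.909, 0.244 and 0.302 CPM in BT3xHuBL livers, without overlap and on only 3 to 20 counts (log2 fold change −1.37, SE 0.42, adjusted p = 0.317). In the liver 3.48% of all features were wholly lower in BT3xHuBL in this way. Ccl2, which attracts monocytes, was at −0.79 in the liver (SE 0.27, adjusted p = 0.344), Cxcl1, which attracts neutrophils, at −0.77 (SE 0.54), and the inhibitors Nfkbia and Tnfaip3 at −0.28 and −0.35. The adaptor Myd88 was at −0.13 and the brake Irak3 at 0.45. In the aorta Nfkbia was at 0.26 (SE 0.11, adjusted p = 1), with all BT3xHuBL above all HuBL libraries, as for 5.29% of all features. Il6 and Ptgs2 were at −0.67 (SE 0.83) and −0.44 (SE 0.35) in the aorta. Ptgs2 was at −0.80 without BT3xHuBL aorta 3 and −0.20 without HuBL aorta 2. Between tissues 52 of 57 tested pathway genes passed in HuBL, 40 higher and 12 lower in the aorta, beside 83% of all features (44% higher, 39% lower). Casp8 and Nfkbia were lower in the aorta there (−0.26 and −0.66), but were at 0.52 and 0.13 when libraries were scaled by their totals.

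**Figure D5:**
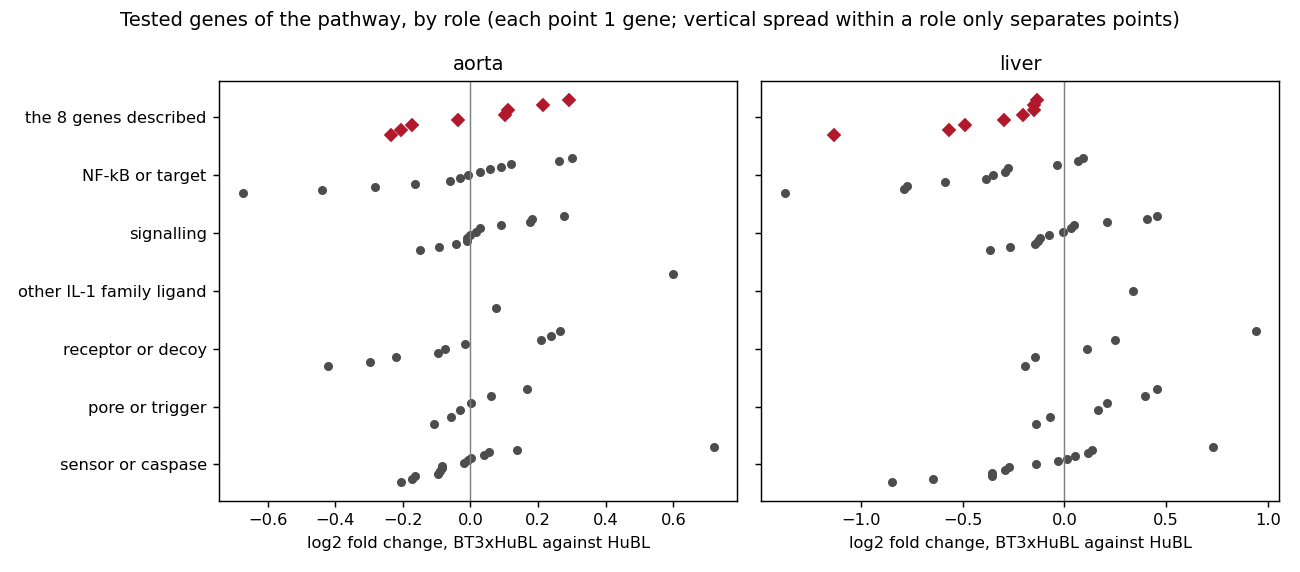
Log2 fold change of BT3xHuBL against HuBL in aorta (left) and liver (right) for the 8 genes (red) and the other tested genes of the pathway by role (grey), 1 point per gene; vertical spread within a role only separates points. The 8 genes straddle 0 in the aorta and all lie below 0 in the liver, where Tnf (−1.37) and Pycard (−1.13) are the lowest points.

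The genes whose library-to-library pattern came closest to Il1b and Nlrp3 were found by the root mean square difference of tissue-centred log2 CPM. In the 6 aortas, Oacyl (0.114), Ncapg (0.164) and Snx22 (0.170) came closest to Il1b among 12427 genes, and Tgfbr2 (0.056), Ppp1r9a (0.057) and Paqr6 (0.065) to Nlrp3. In the 8 livers, Fgr (0.406), Ptger2 (0.408) and Cyp4f18 (0.427) came closest to Il1b among 11598 genes, and Sqle (0.185), Mmp27 (0.198) and Evi2a (0.202) to Nlrp3. These distances over 6 or 8 libraries are descriptions, and the libraries of a tissue share depth and tissue makeup. The distance was larger for Il1b in the liver than for Nlrp3, in step with its larger spread over the libraries (SD 0.863 and 0.547 on the log2 scale).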

How the data were processed

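RNA of 14 libraries (aorta and liver, HuBL and BT3xHuBL, 3 or 4 per group) was measured. The kits, per the labels' protocols, were Qiagen RNeasy for RNA and Lexogen QuantSeq V2 for sequencing libraries; the latter reads transcripts near their 3′ ends. The deposited values are raw counts per feature. HTSeq 2.0 and GRCm38 are named in the submitters' processing notes. No source used here gives the aligner, the strand setting or the annotation.

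The members, lists and tests were chosen with earlier results of these data known. Counts were fitted with edgeR 4.0.16 (R 4.3.3) after filterByExpr and TMM scaling, by its robust quasi-likelihood F-test, two-sided, Benjamini-Hochberg adjustment over all features, threshold 0.05. Genotype was fitted per tissue, and interaction and tissue contrasts over all 14 libraries. CPM use TMM factors of all 14 libraries. The fits were tested on simulated data. Groups came from the labels. Within groups libraries differed by a chi-square of 12.9 to 81.4 per degree of freedom, more than repeat sequencing of the same library would give. That does not show whether they came from different animals. Named genes are the 8 members, 24 fixed pathway genes and the 3 closest patterns of Il1b and Nlrp3 per tissue. The neighbours of Pycard, receptor segments, overlapping genes, and Trim72, Prss8 and Nlrp12, were added after their values were seen. Alternatives were RLE scaling, DESeq2 1.42.0, other low-count filters, a replicate block, a joint fit and leaving out each library. Promoters came from RefSeq, positions from GENCODE M21. The deposited tables' own coordinates are not used here.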

Additional observations from a re-analysis of the deposited data

Results flagged for a closer look

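In HuBL livers, Casp1 stood apart in HuBL liver 1, at 8.299 CPM against 6.29 to 6.548 CPM in the other 3 libraries. In the same group Il1a stood apart in HuBL liver 3, at 5.425 CPM against 7.138 to 7.341 CPM. In both cases the gap to the nearest library, over the range of the group, was above Dixon's 95% critical value for 4 samples. Groups of 3, and so all aorta groups, were not examined this way, and chance gives about 1 such case in 20 groups. Without HuBL liver 1 the liver log2 fold change of Casp1 was −0.39, and the Il1a values with each liver left out ran from −0.66 to −0.48.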

How the results depend on the processing

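No member was called for genotype in the aorta under any alternative run. DESeq2 called 68 features in the aorta, 127 in the liver and 44 in the interaction, where edgeR called 4, 0 and 0. One of the 8 genes was among the last 2 sets: Pycard, at −1.141 in the liver and 1.275 in the interaction. The fit of all 14 libraries called 5 liver features, including 1 member (Pycard). Without the low-count filter 9 aorta features were called. Replicate numbers did not pair the libraries (correlation of deviations −0.058 to 0.135 in the aorta and −0.042 to 0.159 in the liver, with 1 of 3 and 1 of 4 libraries correlating best with its own number). With the replicate block 14 aorta and 10 liver features were called and no member in either. The genotype values of Nek7 (−0.002) and Il33 (−0.037) in the aorta and Naip2 (−0.017) in the liver then changed sign. Tissue contrasts of the block fit compare reference replicates and not group means. Its HuBL value for Il1a (0.369) is therefore not read as a tissue difference. Under library totals the HuBL tissue values of Casp8 and Nfkbia were 0.519 and 0.13.

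With each library left out in turn, calls ranged from 0 to 27 in the aorta (27 without BT3xHuBL aorta 3), 0 to 5 in the liver (5 without BT3xHuBL liver 2) and 0 to 3 in the interaction, and members called in the HuBL tissue contrast from 6 to 8. Values that changed sign ranged in the aorta from −0.151 to 0.104 (Casp1), −0.461 to 0.131 (Il1b), −0.071 to 0.158 (Nlrc4), −0.272 to 0.008 (Aim2), −0.033 to 0.193 (Casp4), −0.02 to 0.029 (Casp8), −0.099 to 0.026 (P2rx7), −0.082 to 0.059 (Nek7), −0.134 to 0.031 (Il1rap), −0.335 to 0.557 (Il18r1), −0.471 to 0.341 (Il33), −1.104 to 0.421 (Il6), −0.099 to 0.484 (Tnf), −0.458 to 0.339 (Cxcl1) and −0.052 to 0.303 (Ccl2). In the liver they ranged from −0.522 to 0.109 (Nlrp3), −0.627 to 0.281 (Il1b), −0.541 to 0.078 (Il1rn), −0.18 to 0.174 (Nlrc4), −0.086 to 0.195 (Naip2), −0.356 to 0.009 (Il18bp) and −0.098 to 0.212 (Sigirr). In the interaction they ranged from −0.433 to 0.469 (Il1b) and −0.239 to 0.033 (Il18), and in the HuBL tissue contrast from −0.096 to 0.961 (Cxcl1). The causes were not tested. Depth limits genes of low count in the liver: Nlrp3 had 6 to 27 counts per library and Tnf 3 to 20.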
